A study of Mus musculus with 24 samples.

Results

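Within Tal1-deleted bone marrow, lymphoid-primed progenitors that report Rag2 were compared with those that do not. The cells are CD135+ LSK cells (CD135 is the product of Flt3, and LSK cells lack lineage markers and carry Sca1 and Kit), which the labels call LMPP. All 3 GFP-positive and 3 GFP-negative libraries of this population were taken, 6 of the 24 libraries of the series, and every gene in them was read. Both groups came from VaviCre Tal1F/F Rag2GFP animals, so the floxed Tal1 alleles, the Vav-driven iCre that is active across blood cells and the GFP reporter of Rag2 were shared by both sides and only the GFP gate differed. For comparison, 6 libraries of Ctrl LMPP (Tal1 F/F Rag2GFP without Cre, in the same GFP gates) and 6 of KO HSC (CD135- LSK of the Cre genotype) were used. The age of the animals, whether any were pooled and whether replicates are separate animals are not given in the sources used here. A p-value of the linear model used here reflects the scatter of libraries within groups, pooled over all 8 groups of 3 in the series. Part of that scatter can be technical.

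TAL1 is a basic helix-loop-helix transcription factor of blood stem cells and of the erythroid, megakaryocyte and mast cell lineages. It pairs with E proteins on E-box DNA, joins LMO2, LDB1 and GATA factors in a larger complex, and thereby takes E proteins away from the lymphoid genes that they activate. LMPP are early progenitors that have largely lost megakaryocyte and erythroid potential, still make myeloid cells, and begin to transcribe Rag1, Rag2 and Dntt as they turn towards the lymphoid lineages. The comparison asks what distinguishes the cells that have begun Rag2 transcription when Tal1 has been deleted.

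The values are the authors' normalised counts, read for 16215 genes that passed a filter on low values. Depth per library, estimated from the spacing of the lowest values, was about 4610000 to 13700000 counted reads in the 6 libraries, with about 4840000 in GFP-positive replicate 3. GFP-positive replicate 3 stands apart: 5465 of 17149 genes had no read there against 887 to 1734 in the other 5 libraries, although GFP-negative replicate 3 was about as shallow (4610000). Its Spearman correlation with the other 5 libraries was 0.796 to 0.834 across genes, against 0.92 to 0.962 among those 5. Many results are therefore given with and without it. Mitochondrially encoded genes took 25.2 to 32.5% of normalised counts in GFP-positive and 23.9 to 37.7% in GFP-negative libraries. The surface markers of the sort were present in all 6 libraries, with Kit between 2405 and 6456, Ly6a (Sca1) between 285 and 1703 and Flt3 between 3623 and 8621 normalised counts. Among B lineage genes Cd79a stood between 0.0567 and 19.5 and Ebf1 between 0.0893 and 44.8, while Cd79b reached 180, Btk stood between 106 and 417 and Ighm between 2070 and 9204. Cd3e of T cells had no read in any of the 6 libraries, and Pax5 and Vpreb1 were not analysed here.

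In all, 95 genes rose in GFP-positive cells and 92 fell (limma, Benjamini-Hochberg adjusted p under 0.05), which is 0.586% and 0.567% of the genes tested, 1.15% together. Overlap was read from the same libraries as these calls, so it is not separate support for them. In 19.1% of all genes every library of one gate lay above every library of the other. The GFP-positive libraries were above in 8.05% and below in 11.0%, and no called gene of the 187 overlapped. The median log2 change over all genes was -0.22, so single changes are read beside that shift. Without GFP-positive replicate 3 the median was -0.01 and 36 genes rose (0.223%) and 18 fell (0.111%), of which 31 and 18 were among the 95 and 92. All 187 genes kept their sign in that fit, which groups that do not overlap must do when 1 library is left out. The median of the rises moved from 1.88 to 1.55 and that of the falls from -2.87 to -2.43. Calls were also lost without other libraries. Of 61 named genes that passed, 33 no longer did without GFP-positive replicate 3, and 27 and 29 without GFP-negative replicates 1 and 2. When the KO LMPP libraries were fitted alone, without the spread of the other groups, 52 no longer passed. Without both GFP-positive replicate 3 and the other library of low detection (Ctrl HSC GFP-positive replicate 2), 9 no longer passed. With each library weighted by its agreement with its group (array weights, 0.1 for GFP-positive replicate 3), 414 genes rose (2.55%) and 385 fell (2.37%), including all 187. GFP-positive replicate 3 was the highest GFP-positive library in 74 of the 95 rises, a count for which no share over all genes was taken. Its normalised counts sum to 1.07e+07, over fewer genes with a read, against 8.80e+06 and 8.61e+06 in GFP-positive replicates 1 and 2. It had no read in 51 of the 92 falls (55.4%, against 28.7% of all genes tested), and its part in the result was otherwise not tested.

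The targeted and the reported gene were read first. Tal1 (ENSMUSG00000028717, chr4:115056426-115071755, plus strand, GRCm38) stood at 329, 335 and 253 normalised counts in GFP-negative replicates 1 to 3 and at 62.9, 136 and 0.499 in GFP-positive replicates 1 to 3, where the last value is the level of no read. The groups did not overlap, and the lowest value was that of the library of low detection. In Ctrl LMPP the gene stood at 667, 984 and 684 in GFP-negative and 518, 396 and 575 in GFP-positive libraries, above every KO LMPP library. Tal1 fell by 3.13 on the log2 scale in GFP-positive KO cells (SE 0.70, limma adjusted p = 0.0222), and without GFP-positive replicate 3 the difference was -1.67 and did not pass (adjusted p = 0.0824). With Ctrl HSC GFP-positive replicate 2 left out as well, it was again -1.67 and passed (limma adjusted p = 0.018). With array weights it was -1.77 and passed (limma adjusted p = 0.00141). A count over the whole gene includes exons outside the floxed segment, so it does not measure how complete the deletion was. Rag2 (ENSMUSG00000032864, chr2:101624718-101632529, plus strand, GRCm38), a subunit of the V(D)J recombinase, stood at 1144, 1575 and 2593 in GFP-positive and 45.3, 103 and 54.5 in GFP-negative replicates 1 to 3. The 3 GFP-positive libraries were all far above the 3 GFP-negative ones, as the reporter gate selects for. The log2 change was 4.63 (SE 0.52, limma adjusted p = 2.29e-05). An exact permutation test (two-sided) of Rag2, Rag1, Dntt, Il7r, Flt3 and Tal1, each taken singly, gave p = 0.1 for all 6, and no smaller p is possible with groups of 3.

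The 250 bases upstream of the RefSeq start of 4 genes are shown because they span the results that follow: Rag2 and Dntt of the lymphoid programme rose, while Hlf of stem cells and Cpa3 of mast cells fell. They lie at chr2:101624462-101624711 (Rag2, plus strand), chr19:41029025-41029274 (Dntt, plus strand), chr11:90390918-90391167 (Hlf, minus strand) and chr3:20242182-20242431 (Cpa3, minus strand) of GRCm38.p6, and are written 5′ to 3′ on the strand of the gene. Capitals mark the letters CANNTG, the general form of an E-box, which reads the same on both strands.
Rag2: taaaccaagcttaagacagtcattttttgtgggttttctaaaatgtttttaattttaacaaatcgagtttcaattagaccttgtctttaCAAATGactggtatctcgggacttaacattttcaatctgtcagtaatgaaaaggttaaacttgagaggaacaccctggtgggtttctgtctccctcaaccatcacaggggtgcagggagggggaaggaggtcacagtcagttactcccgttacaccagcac
Dntt: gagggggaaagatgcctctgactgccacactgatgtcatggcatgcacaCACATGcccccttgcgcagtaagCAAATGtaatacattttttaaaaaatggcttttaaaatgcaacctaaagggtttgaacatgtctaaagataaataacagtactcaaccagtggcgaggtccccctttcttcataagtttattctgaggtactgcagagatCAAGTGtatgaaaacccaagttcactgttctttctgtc
Hlf: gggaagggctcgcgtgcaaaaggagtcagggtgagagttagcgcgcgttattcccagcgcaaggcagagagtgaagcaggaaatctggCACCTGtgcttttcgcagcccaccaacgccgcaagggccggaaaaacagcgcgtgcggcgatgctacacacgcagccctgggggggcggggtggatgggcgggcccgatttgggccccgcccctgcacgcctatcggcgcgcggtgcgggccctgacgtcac
Cpa3: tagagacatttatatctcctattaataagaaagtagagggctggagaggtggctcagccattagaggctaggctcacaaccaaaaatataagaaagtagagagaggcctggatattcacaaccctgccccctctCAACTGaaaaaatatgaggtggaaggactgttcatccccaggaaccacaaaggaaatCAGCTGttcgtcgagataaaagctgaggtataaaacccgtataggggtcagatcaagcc
The windows hold 1, 3, 1 and 2 such matches in that order. Of 10822 tested genes with a RefSeq window, 57.8% hold at least 1 match, against 41 of 68 matched rises (60.3%) and 48 of 71 matched falls (67.6%). A match is a description of letters and not a binding site.

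Of 13 tested genes of antigen receptor recombination 3 rose (Rag2, Dntt and Hmgb2), none fell and 10 did not pass, with a median log2 change of 1.30. Counts of this and the later lists stand beside 0.586% of all genes that rose and 0.567% that fell. Rag2 is the gene that the gate selects for, and without GFP-positive replicate 3 the members that rose were 2, Rag2 and Dntt (median 0.94). Dntt encodes terminal transferase, which adds untemplated bases at receptor gene joints. It stood at 10388, 8388 and 22185 normalised counts in GFP-positive and 1501, 803 and 1349 in GFP-negative replicates 1 to 3. Every GFP-positive library was several times above every GFP-negative one, and the log2 change was 3.40 (SE 0.44, limma adjusted p = 1.21e-04). Hmgb2, a DNA-bending protein that assists the recombinase and is also abundant in dividing cells, rose by 1.69 (adjusted p = 0.0202), and was 1.53 without GFP-positive replicate 3 (adjusted p = 0.139). Rag1, the partner of Rag2 in the recombinase, stood at 173, 162 and 280 against 76.6, 119 and 19.4. Its groups did not overlap either, but at a log2 difference of 1.72 it did not pass (adjusted p = 0.245). Of the end-joining genes in the list, Xrcc6 was at 1.38 (adjusted p = 0.157) and Prkdc at 0.20 (adjusted p = 0.791). In bulk libraries such as these, more cells that express a gene and more RNA per cell cannot be told apart.

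Among lymphoid receptors and surface molecules 4 of 18 members rose, among them Il7r, Notch1 and Ly6d, and none fell (median 0.47). In 8 of the 18 the GFP-positive libraries were all above the GFP-negative ones, against 8.05% of all genes. They were all below in 2, against 11.0%. Il7r encodes the alpha chain of the IL-7 receptor, which early lymphoid progenitors depend on. It stood at 608, 572 and 574 in GFP-positive and 8.92, 27.5 and 19.4 in GFP-negative replicates 1 to 3. The GFP-positive libraries were nearly equal, including the one of low detection, and the log2 change was 4.79 (SE 0.85, limma adjusted p = 0.00401). Notch1, a receptor required for T lineage specification, stood at 3649, 3059 and 4556 against 1452, 895 and 1218 and rose by 1.66 (limma adjusted p = 0.00242). Its GFP-positive libraries all lay above its GFP-negative ones. Ly6d, which marks lymphoid progenitors biased to the B lineage, had no read in any GFP-negative library and stood at 41.6, 7.66 and 40.6 in GFP-positive libraries, at least 16-fold higher than 3 reads over the GFP-negative group would give (adjusted p = 0.0178, and 0.13 without GFP-positive replicate 3). Flt3, the receptor of the gate itself, stood at 4799, 5460 and 8620 against 3623, 3637 and 4199 (0.68, adjusted p = 0.414). Cd27 (0.25) and Itga4 (0.80) did not pass either.

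**Figure D1:**
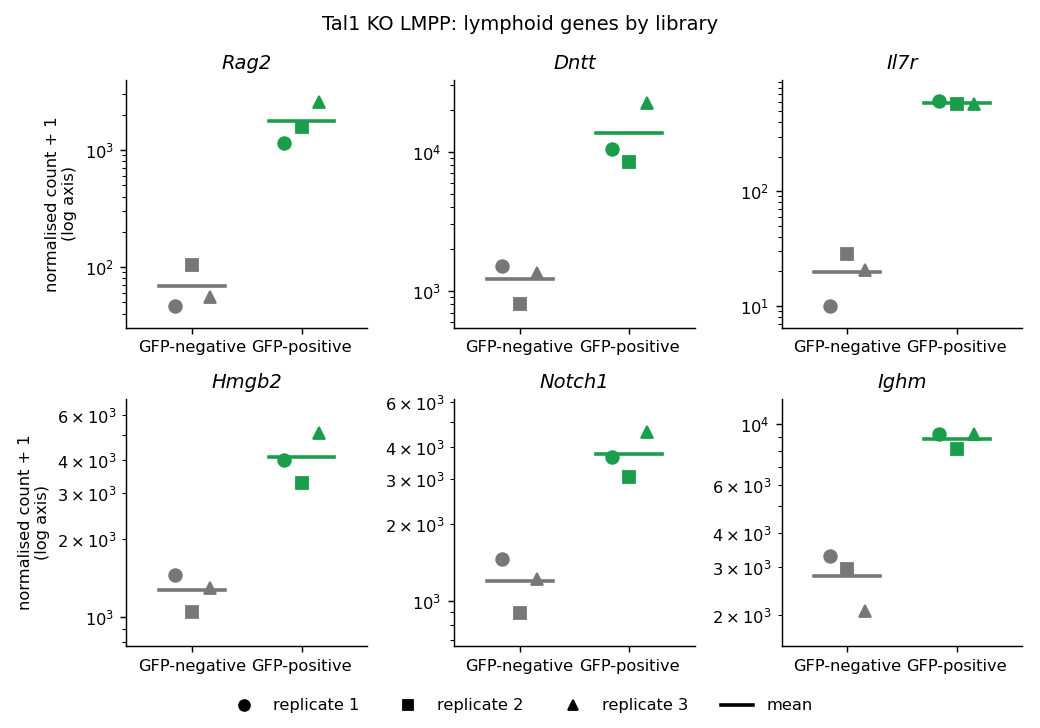
Normalised counts plus 1 (log axis) of Rag2, Dntt, Il7r, Hmgb2, Notch1 and Ighm in each KO LMPP library, with GFP-negative in grey, GFP-positive in green and lines at the means. The GFP-positive libraries lie above the GFP-negative ones in every panel, and those of Il7r sit between 572 and 608.

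In the list of lymphoid transcription factors none of 18 tested members rose, 1 fell and 17 did not pass. The median was 0.49, beside -0.22 over all genes. In 8 of the 18 the GFP-positive libraries were all above the GFP-negative ones, against 8.05% of all genes. They were all below in 2, against 11.0%. The member that fell was Ikzf2, which encodes the zinc finger protein Helios, with 593, 808 and 382 against 2023, 2197 and 1853 (log2 change -1.82, SE 0.26, limma adjusted p = 5.86e-04). Ikzf1, which encodes Ikaros and is needed for lymphoid development, stood at 6736, 6019 and 7010 against 4011, 3573 and 3151, and its log2 difference of 0.88 missed the threshold (adjusted p = 0.0576). So did Satb1, a chromatin organiser of lymphoid progenitors, at 1.07 (adjusted p = 0.0623). With array weights 5 members of this list rose. Of 10 tested B lineage members 1 rose, the immunoglobulin heavy chain gene Ighm, with 9178, 8139 and 9204 against 3304, 2962 and 2070 (1.69, adjusted p = 0.0121). Ighm was at 1.66 without GFP-positive replicate 3 (adjusted p = 0.0534). Ebf1, which starts the B cell programme, stood at only 44.8, 18.0 and 8.94 in GFP-positive and 0.0893, 0.664 and 1.85 in GFP-negative libraries (2.30, adjusted p = 0.129), and Blnk, an adaptor of the pre-B cell receptor, at 369, 324 and 151 against 15.2, 49.9 and 32.1 (2.99, adjusted p = 0.205). None of 17 T and NK lineage members passed (median 0.03). Bcl11b, the T lineage commitment factor, had no read in any of the 6 libraries, and Tcf7 stood between the level of no read and 15.8. Of 7 Notch pathway members only Notch1 itself passed: the target Hes1 was at or under 3.74 normalised counts in all 6 libraries, and the list's median of -0.15 turned to 0.23 with median centring and 0.10 with quantile normalisation.

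Of 28 stem cell genes 5 fell in GFP-positive cells, among them Hlf, Procr, Meis1 and Txnip, 1 rose (Cd48) and 22 did not pass, with a median log2 change of -1.48 and 2 members above 0. In 19 of the 28 the GFP-positive libraries were all below the GFP-negative ones, against 11.0% of all genes. Summed over the list, the level was 2255, 2499 and 1590 ppm of a library's total in GFP-positive and 5564, 5076 and 5045 in GFP-negative replicates 1 to 3. Hlf, a transcription factor of blood stem cells, stood at 2075, 3087 and 1739 normalised counts against 12774, 12234 and 10914. The libraries were tightly grouped within each gate, and the change of -2.42 (SE 0.40, limma adjusted p = 0.00186) was -2.24 without GFP-positive replicate 3 (adjusted p = 0.0162).

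Procr, which encodes the stem cell surface receptor EPCR, stood at 10.6, 5.53 and no read in GFP-positive and 279, 265 and 203 in GFP-negative libraries (-4.86, limma adjusted p = 0.0313, and 0.18 without GFP-positive replicate 3). Meis1, a homeobox factor of stem cells, fell by 1.72 (adjusted p = 0.0121) and Txnip, an inhibitor of thioredoxin that is high in quiescent stem cells, by 1.47 (adjusted p = 0.00931). They were at -1.20 and -1.24 without GFP-positive replicate 3 and neither passed (adjusted p = 0.0819 and 0.0579). The member that rose was Cd48, a surface protein that is low on stem cells and high on multipotent progenitors, with 619, 635 and 564 against 275, 218 and 269 (1.25, adjusted p = 0.0434, and 0.0819 without GFP-positive replicate 3). Gata2, which stem cells share with the TAL1 complex, stood at 192, 212 and no read against 914, 1258 and 502 (-3.85, adjusted p = 0.106). Kit was at -0.86 (adjusted p = 0.0512), Cd34 at 0.51 (adjusted p = 0.397) and Erg at -0.44 (adjusted p = 0.515). Without GFP-positive replicate 3, 2 members of the list fell, Hlf among them, and the median was -1.16. With array weights 15 fell.

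**Figure D2:**
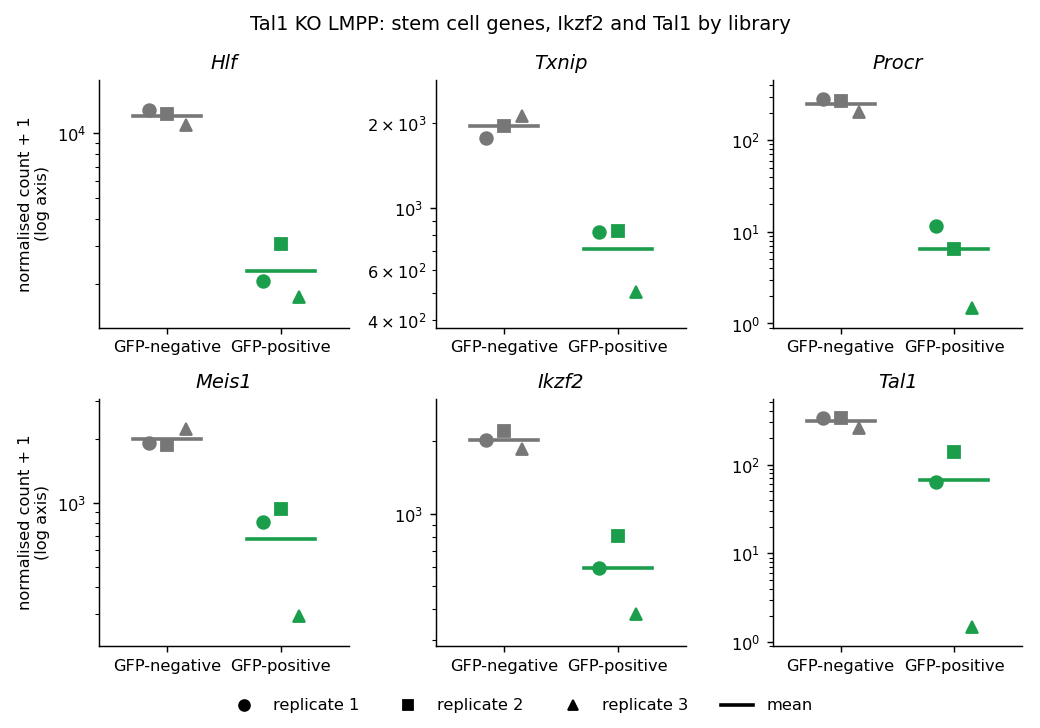
Normalised counts plus 1 (log axis) of Hlf, Txnip, Procr, Meis1, Ikzf2 and Tal1 in each KO LMPP library, with lines at the means. All GFP-positive libraries lie below all GFP-negative ones, and for Procr and Tal1 the third GFP-positive library (triangle) is far below the other two.

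Among the partners of TAL1 none passed. Of 14 tested members of its complex with E and Id proteins, only Tal1 itself did, and the median was -0.42. Lmo2, the bridging subunit, stood at 2535, 2337 and 2070 against 3726, 4273 and 3065, lower in every GFP-positive library but not passing (-0.66, limma adjusted p = 0.168). The E protein gene Tcf3, which encodes E2A, stood at 1073, 1150 and 1356 against 677, 539 and 443, higher in every GFP-positive library and also not passing (1.12, adjusted p = 0.131). Runx1 was at 0.63 (adjusted p = 0.263) and Lyl1, the closest relative of TAL1, at 0.31 (adjusted p = 0.66).

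Of 20 mitosis genes 11 rose in GFP-positive cells, none fell and 9 did not pass. The median was 1.60 and all 20 had a log2 change above 0, although the groups overlapped in some: all GFP-positive libraries were above all GFP-negative ones in 15 of the 20, against 8.05% of all genes. Mki67, the proliferation antigen, stood at 10960, 8684 and 14054 against 4079, 2417 and 5417 (1.55, SE 0.26, limma adjusted p = 0.00242). Ube2c, the ubiquitin-conjugating enzyme of the anaphase-promoting complex, stood at 1219, 738 and 1676 against 235, 127 and 394 (2.31, adjusted p = 0.00358), and Ccna2, which encodes cyclin A2, at 1179, 1124 and 2075 against 339, 280 and 605 (1.85, adjusted p = 0.00269). In each of these genes GFP-negative replicate 3 was the highest of its gate and still lay below all GFP-positive libraries. Top2a, Kif11, Cenpf, Tpx2 and Nusap1 rose by 1.41 to 1.98. Among members that did not pass were Aurkb (1.17, adjusted p = 0.146) and Bub1b (1.37, adjusted p = 0.114). Without GFP-positive replicate 3 the median was 1.42, 4 of the 20 rose and all stayed above 0, and with array weights 18 rose. The summed level of the list was 3503, 3122 and 4167 ppm in GFP-positive and 1600, 762 and 2400 in GFP-negative replicates 1 to 3.

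Of 20 S phase genes 2 rose (Uhrf1 and Mcm2), none fell and 18 did not pass, with a median of 0.87, and with array weights 10 rose. Uhrf1, which maintains DNA methylation at replication, stood at 1155, 1319 and 2551 against 415, 411 and 800 (1.60, limma adjusted p = 0.0191), and Mcm2, a subunit of the replicative helicase, at 1145, 1290 and 4564 against 545, 537 and 838 (1.59, adjusted p = 0.0409). Neither passed without GFP-positive replicate 3 (1.26 and 0.95), where no member of the list did. Of 16 G1 cyclins, kinases and inhibitors 2 rose. Cdk6, the G1 kinase of blood progenitors, stood at 5747, 6852 and 3241 against 2031, 2412 and 2505 (1.12, adjusted p = 0.0146), and was at 1.44 without GFP-positive replicate 3 (adjusted p = 0.00106). Cdkn1a, which encodes the cell cycle inhibitor p21, stood at 554, 350 and 1489 against 2.62, 76.7 and 194 (3.81, adjusted p = 0.0442), and was 3.22 without that library (adjusted p = 0.305). Myc (-0.12) and Ccnd2 (-0.12) did not pass.

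**Figure D3:**
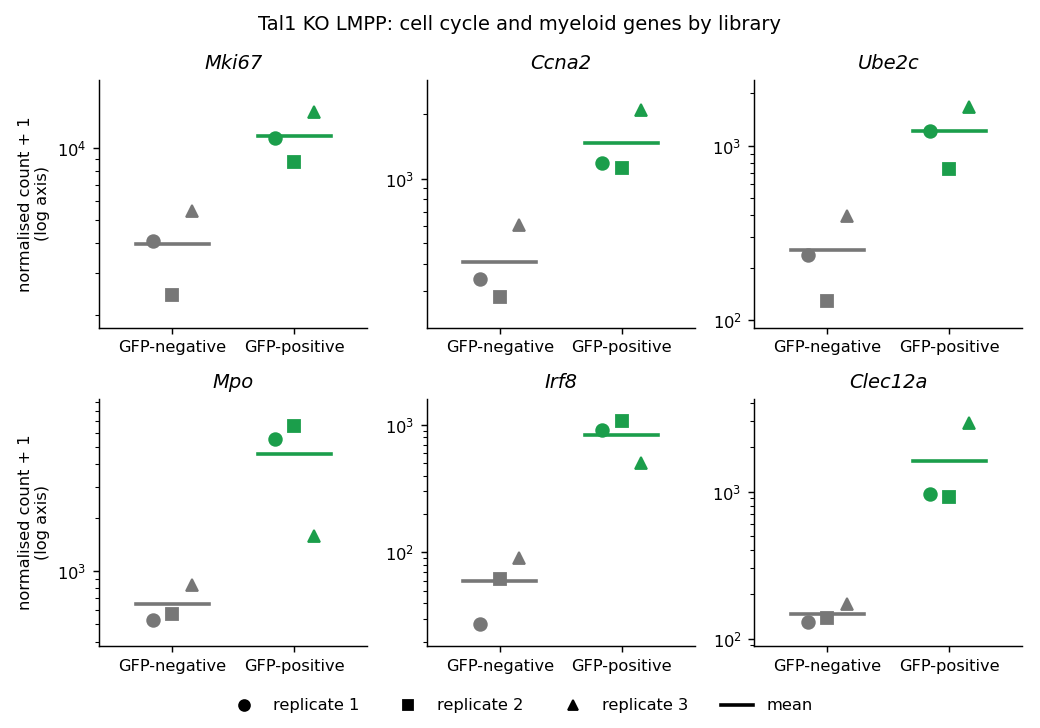
Normalised counts plus 1 (log axis) of Mki67, Ccna2, Ube2c, Mpo, Irf8 and Clec12a in each KO LMPP library, with lines at the means. The GFP-positive libraries lie above the GFP-negative ones in each panel, with Mpo lowest among them in the third library (1584).

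A few genes of myeloid and dendritic cells were also higher in GFP-positive cells. Mpo, which encodes myeloperoxidase, stood at 5590, 6632 and 1584 against 531, 572 and 838 (2.61, SE 0.49, limma adjusted p = 0.00658), and Irf8, a transcription factor of the monocyte and dendritic lineages that B cells also use, at 912, 1066 and 504 against 26.5, 60.6 and 89.5 (3.80, adjusted p = 0.00338). In both the library of low detection was the lowest of its gate, and without it the changes were 3.26 and 4.12. Clec12a, an inhibitory lectin of myeloid cells, stood at 956, 922 and 2929 against 128, 137 and 171 (3.21, adjusted p = 1.11e-04). Mpeg1, a pore-forming protein of phagocytes, rose by 3.57 (adjusted p = 0.0178), or 3.64 without GFP-positive replicate 3 (adjusted p = 0.0665).

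Few other members of their lists passed. Of 29 granulocyte and monocyte members Mpo alone passed, while 3 rose without GFP-positive replicate 3 (median 0.05) and 4 with array weights. The median over all libraries was -0.15, a value whose sign turned with median centring (0.23) and quantile normalisation (0.07). Lyz2 (-0.57), Spi1 (-0.15) and Csf3r (-0.00) did not pass, and the granule proteases differed among themselves: Ctsg stood at 152, 115 and 4.91 against 10.2, 0.67 and no read (3.05, limma adjusted p = 0.0664), while Elane stood at 32.8, 17.0 and 2.70 against 51.6, 54.5 and 19.4. Of 17 dendritic cell and antigen presentation members 3 rose (Irf8, Itgax and Cox6a2), none fell and the median was -0.41, or 0.14 without GFP-positive replicate 3. With array weights 4 rose and 4 fell. In 4 of the 17 the GFP-positive libraries were all above the GFP-negative ones, against 8.05% of all genes. They were all below in 2, against 11.0%. Itgax, which encodes CD11c, stood at 111, 182 and 940 against 12.7, 11.4 and 1.86 (4.56, adjusted p = 0.0121), with the highest value in the library of low detection, and was 3.66 without it (adjusted p = 0.1). Cox6a2, a cytochrome oxidase subunit found in plasmacytoid dendritic cells, stood at 177, 126 and 265 against 0.102, 1.43 and 9.85 (4.75, adjusted p = 0.00126). Siglech, a defining receptor of those cells, stood at 22.6, 7.79 and 2.51 and had no read in any GFP-negative library (adjusted p = 0.154). Cd74, the invariant chain of class II molecules, stood at 94.2, 140 and 671 against 939, 677 and 436 (-1.63, adjusted p = 0.536). H2-Aa, a class II gene, stood at 77.2, 30.3 and 26.9 against 338.5, 347.1 and 369.7, lower in every GFP-positive library but not passing. The gates overlapped for H2-Ab1 and H2-Eb1.

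Transcripts of the mast cell proteases Cpa3, Mcpt4, Cma1 and Tpsb2 were seen in GFP-negative cells, the last 2 only in replicates 1 and 2. These transcripts were at or near the level of no read in GFP-positive cells. Mcpt8 of the same list went the other way, at 2.76, 9.34 and no read in GFP-positive and no read in GFP-negative libraries. In the list of mast cell, basophil and eosinophil genes 2 of 13 tested members fell, none rose and 11 did not pass (median -1.91, or -2.25 with members that had no read in 1 gate set at their bound). Cpa3, the mast cell carboxypeptidase, stood at 2.75, 3.02 and no read in GFP-positive and 275, 1624 and 8.23 in GFP-negative replicates 1 to 3 (-4.87, SE 1.03, limma adjusted p = 0.0163). Mcpt4, a chymase, stood at 94.2, 516 and 17.8 in GFP-negative libraries and had no read in any GFP-positive one, at least 76-fold lower by the limit of 3 reads over the group (adjusted p = 0.00908). The GFP-negative libraries themselves differed widely, with replicate 2 highest in both genes and replicate 3 lowest. The summed list followed the same order, with 81.3, 429 and 23.7 ppm against 4.80, 42.6 and 34.9 in GFP-positive libraries, so the sums of both gates overlapped. Cma1, another chymase, had no read in any GFP-positive library and stood at 64.2, 497 and no read in GFP-negative ones (adjusted p = 0.125). Without GFP-positive replicate 3, Cpa3 did not pass (adjusted p = 0.0819) and Mcpt4 did (adjusted p = 0.0371). Prg2, an eosinophil granule protein of the same list, stood at no read, 210 and 267 against no read, 0.666 and 17.8 and did not pass (adjusted p = 0.418).

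Megakaryocyte and erythroid genes moved only in part. Of 15 megakaryocyte and platelet members 2 fell, the platelet chemokines Ppbp and Pf4, and the median was -0.29, which turned to 0.09 with median centring. Both chemokines had no read in any GFP-positive library. Ppbp stood at 49.3, 17.0 and 57.8 in GFP-negative libraries (at least 15-fold lower in GFP-positive cells, limma adjusted p = 0.0141) and Pf4 at 19.0, 24.5 and 87.4 (at least 15.8-fold lower, adjusted p = 0.0233). Neither passed without GFP-positive replicate 3 (adjusted p = 0.0587 and 0.0819). Of 22 erythroid members Car2, which encodes carbonic anhydrase 2, fell by 1.91 (adjusted p = 0.0178) and Nfe2, a factor of erythroid cells and megakaryocytes, by 1.87 (adjusted p = 0.0223). Tfrc, the transferrin receptor that dividing cells also carry, rose by 1.48 (adjusted p = 0.0412). The median was -0.67, and without GFP-positive replicate 3 no member of the list passed. Beta globin did not pass: Hbb-bs stood at 421, 559 and 5165 against 922, 1134 and 1262, highest in the library of low detection, and its division from the near-identical Hbb-bt is uncertain.

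**Figure D4:**
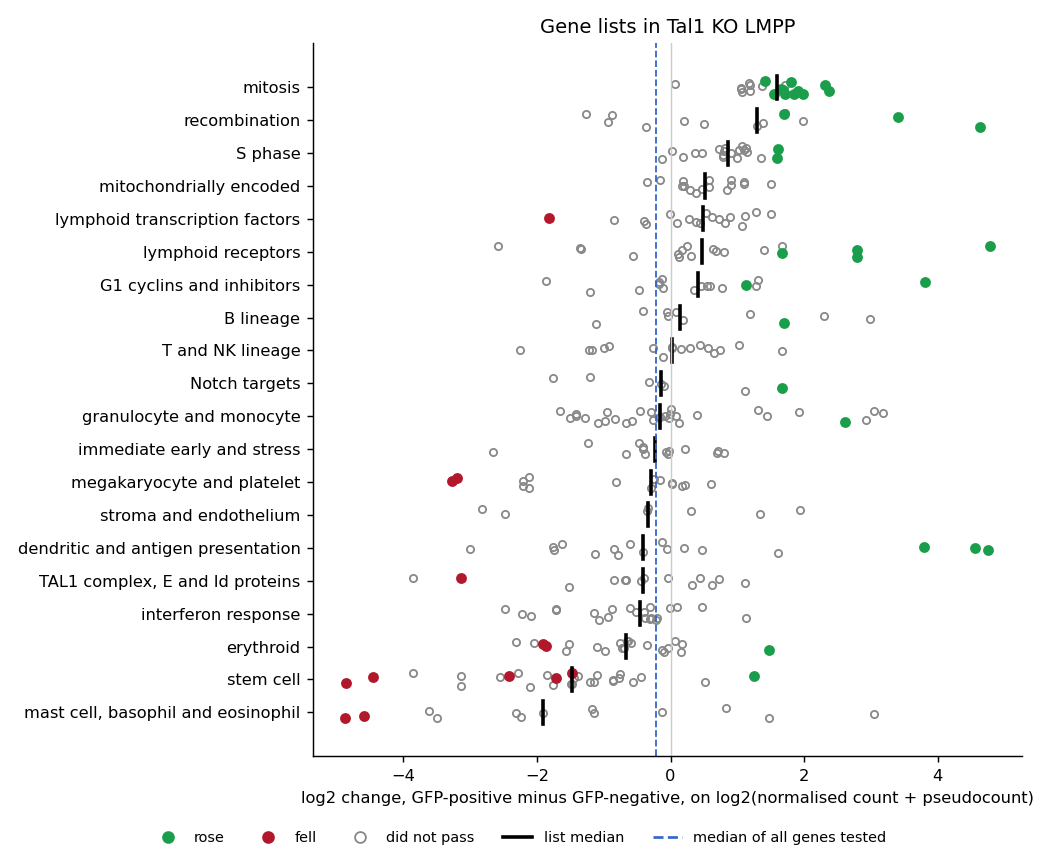
Log2 change (GFP-positive minus GFP-negative, KO LMPP) of the tested members of 20 gene lists, with genes that rose in green, genes that fell in red, list medians as black bars and the median of all genes (-0.22) as a dashed line. Mitosis has the highest median (1.60) and the list of mast cells, basophils and eosinophils the lowest (-1.91).

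In the remaining lists no member passed. The interferon response list had a median of -0.46 over 22 members, with Oasl2 at -1.72 (limma adjusted p = 0.186). That median was -0.08 with median centring and -0.50 with quantile normalisation. In 8 of the 22 the GFP-positive libraries were all below the GFP-negative ones, against 11.0% of all genes. They were all above in 0, against 8.05%. The immediate early and stress list was at -0.23 over 14 and the stroma and endothelium list at -0.34 over 7, and both turned positive with median centring (0.16 and 0.05). Egr1 was the immediate early gene with the largest named difference (-2.66, adjusted p = 0.23). Ribosomal protein genes had a median of 0.53, with 79 of 82 above 0. It was 0.25 without GFP-positive replicate 3, with 67 of 82 above 0, and 0.09 with quantile normalisation. The mitochondrially encoded list was at 0.52 over 16 members and at 0.17 without GFP-positive replicate 3.

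Beyond these lists, the largest rises among genes of at least 5 ppm included Tmem119 (5.35, limma adjusted p = 0.00296) and Kcng1 (5.06, adjusted p = 5.86e-04). Tmem119, a transmembrane protein known as a microglial marker, stood at 56.2, 113 and 980 against no read, no read and 1.86, so its fitted change depends on the pseudocount. Kcng1, a modifying subunit of potassium channels, stood at 504, 337 and 1256 against 3.88, 13.7 and 36.9, with no overlap. Dtx4, a ubiquitin ligase of the Deltex family, stood at 300, 402 and 232 against 10.2, 40.6 and 17.8 (3.68, adjusted p = 0.00126), and Atp8b4, a phospholipid transporter, at 1295, 1252 and 1475 against 112, 201 and 228 (2.92, adjusted p = 3.77e-05). All 3 GFP-positive values of Atp8b4 were nearly equal. Plekha7, Drc7 and Cnn3 rose by 3.52, 3.82 and 3.21, and none of these 3 passed without GFP-positive replicate 3 (adjusted p = 0.267, 0.217 and 0.339).

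Of the falls, Grb10, an imprinted adaptor that dampens growth factor signalling, stood at no read, 3.64 and 2.73 against 254, 306 and 104 (-5.08, limma adjusted p = 0.00181). Ptpn14, a tyrosine phosphatase, stood at 1.45, 0.474 and no read against 89.1, 160 and 157 (-4.79, adjusted p = 0.00537). Plxdc2, a plexin domain protein, stood at 11.9, 7.43 and no read against 240, 278 and 108 (-4.38, adjusted p = 0.00126). All 3 genes stood at or under 11.9 in every GFP-positive library, a level at which the size of a fitted change depends on the pseudocount, and all passed without GFP-positive replicate 3 (adjusted p = 0.00608, 0.0215 and 0.00669). Lhcgr, the luteinising hormone receptor, passed there too (-4.18, adjusted p = 0.00856). Rbfox2, Nbea, Bgn, Gucy1a1, Mamdc2 and Klf12 fell, with changes of -4.20 to -3.92, and without that library none of these 6 passed (adjusted p = 0.051 to 0.18).

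The difference between gates was then set beside that in Ctrl LMPP, which shares no library with it. All 95 rises were positive in Ctrl LMPP too and 87 of the 92 falls were negative, while 46.8% of all genes tested were positive. Their median changes there were 0.90 and -1.29, against 1.88 and -2.87 in KO LMPP, where they had been selected. In Ctrl LMPP 5 genes rose (0.0308%) and 4 fell (0.0247%), of which 3 rises (Rag2, Il7r and Cmah) and 3 falls (Hlf, Cd63 and Ttc39b) were also called in KO LMPP. Cd63 and Ttc39b are named because they are in that count. Hlf was at -2.41 in Ctrl and -2.42 in KO, and Il7r at 4.71 and 4.79. Ikzf2 was at -1.22 in Ctrl, where it did not pass (limma adjusted p = 0.0755), and at -1.82 in KO. Its libraries in Ctrl did not overlap, at 577, 622 and 733 in GFP-positive and 1637, 1404 and 1451 in GFP-negative cells. Cmah, a sialic acid hydroxylase gene, stood at 2638, 2574 and 2976 against 418, 433 and 637 in KO LMPP (2.47) and was at 2.01 in Ctrl. Of the mitosis genes, Mki67 was also higher in GFP-positive cells in Ctrl, at 10396, 11929 and 9457 against 5796, 5031 and 4641. Ccna2 was too, at 1085, 1191 and 953 against 473, 618 and 646. The gates overlapped in Ctrl for Kif11 (1170, 2197 and 2271 against 802, 1413 and 1223).

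Tested directly, no gene passed for a gate difference that differs between genotypes (limma, 0 of 16215, 0.0%), with 531 genes at an unadjusted p under 0.05 and 6 called with array weights. Atp8b4 had 0.91 in Ctrl and 2.92 in KO (difference 2.02, adjusted p = 0.978), with lower GFP-negative values in KO (112 to 228 against 652 to 929). Mpo was at 0.47 in Ctrl and 2.61 in KO (difference 2.14, adjusted p = 0.978), and its GFP-negative libraries stood at 531, 572 and 838 in KO against 3910, 5862 and 6748 in Ctrl. Cpa3 was at 1.24 in Ctrl, where no library exceeded 19.2, and -4.87 in KO (difference -6.11, adjusted p = 0.978). Spry4 and Ano7 also had small unadjusted p-values here, with differences of -4.17 and -4.66 (adjusted p = 0.97 and 0.978). Tal1 was at -0.64 in Ctrl and -3.13 in KO (difference -2.49, adjusted p = 0.978).

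**Figure D5:**
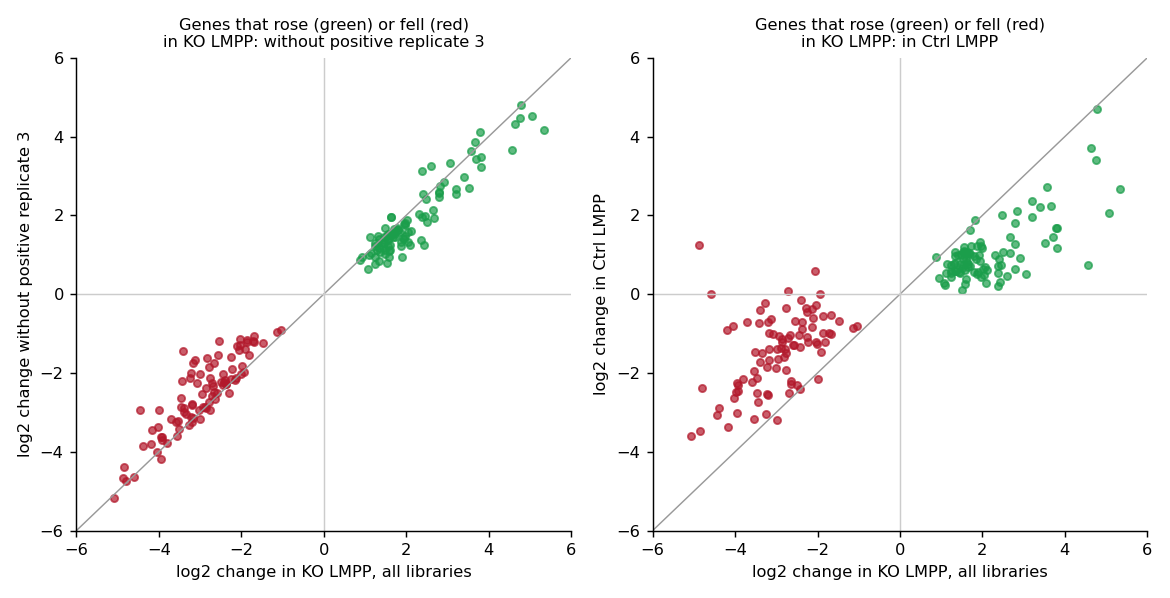
Log2 change in KO LMPP of the 95 genes that rose (green) and 92 that fell (red), from all libraries, on the x axis. The y axis shows the same change without GFP-positive replicate 3 (left) and the change in Ctrl LMPP (right). On the left all 187 genes lie on the same side of 0, which follows from groups that do not overlap. On the right 95 rises and 87 falls keep their side, and the grey diagonal marks equality.

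The second comparison was with KO HSC, the CD135- LSK cells of the same genotype, where 25 genes rose (0.154%) and 36 fell (0.222%). Of the 95 rises of KO LMPP 87 were positive there and 12 passed, and of the 92 falls 73 were negative and 4 passed, beside 45.7% of all genes positive. Genes passing in both included Atp8b4 (3.16 in KO HSC), Clec12a (3.31), Mpo (3.13), Dntt (2.10), Dtx4 (3.06) and Notch1 (1.49) among rises, and Mcpt4, Pf4 and Txnip (-1.50) among falls. The direct test again called no gene (0.0%), with 1122 genes at an unadjusted p under 0.05. The smallest adjusted p was 0.0639 for Mef2c, a transcription factor of lymphoid progenitors. Mef2c stood at 3354, 3565 and 4408 against 2132, 2270 and 2019 in KO LMPP and at 855, 1127 and 1408 against 1944, 2714 and 2130 in KO HSC. Its gate difference was thus 0.81 (adjusted p = 0.0894) in one population and -1.01 (adjusted p = 0.0457) in the other. Ikzf2 was at -1.82 in KO LMPP and 0.09 in KO HSC (difference -1.91, adjusted p = 0.15). Cavin2, Cd180 and Cmah had differences of 4.75, 1.78 and 2.02 (adjusted p = 0.16, 0.25 and 0.28). Mki67 of the mitosis list was at 1.55 in KO LMPP and 0.01 in KO HSC (difference 1.54, adjusted p = 0.4), where both gates stood between 7081 and 12732. With array weights, which lower the weight of GFP-positive replicate 3, 44 genes passed this test, and without the 2 libraries of low detection 7 did.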

How the data were processed

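RNA of sorted mouse progenitors was sequenced for 76 cycles from total RNA with a low-input kit, per the labels. The authors trimmed reads with Trimmomatic 0.33, counted them per gene with HTSeq 0.6.1 on mm10 and normalised with edgeR, per the submitters' processing notes. Not given in the sources used here are the aligner, the strand setting and the normalisation function. What the authors deposited is a signal table of normalised counts, 17149 genes by 24 libraries. They are not whole multiples of a step, so no count model was fitted, but low values lie in bands of no read, 1 read and 2 reads. The spacing of these bands gave the approximate depth, and a gene in the lowest band is said to have no read.

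Groups came from the sample titles, 8 groups of 3. Names and coordinates came from GENCODE M21 for 16985 of 17149 identifiers, and promoter windows from RefSeq (GRCm38.p6). Genes with at least 1 ppm of a library's total in at least 3 libraries were kept (16215). Tests used log2(value + 4.10), where the pseudocount is 0.5 ppm of the mean total, and changes of genes near 0 are understated on it. limma 3.58.1 in R 4.3.3 fitted 8 group means to all 24 libraries with a trend of variance on level (degrees of freedom 16 residual, 9.53 prior). Differences between gates, and the differences of those differences, were tested as contrasts with Benjamini-Hochberg adjustment, threshold 0.05. Log2 changes and SE are from this model, and values of single libraries are normalised counts. Limits for genes with no read in a group use 3 reads over the group and cover counting error only. The procedure was tested on simulated data.

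Alternatives changed the pseudocount, filter, scaling, library weights, libraries fitted, replicate term and trend. Genes named were the 6 always read, the 15 largest rises and falls with separated groups and at least 5 ppm, up to 8 passing and 3 abundant members of each list that did not pass, and the 5 smallest p-values of each test between populations, and further members of these lists were chosen after their values were seen. Predicted genes and receptor segments were left out. A few named genes are left out of the text but stay in the counts. Members and lists were chosen with earlier results of these data known.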

Additional observations from a re-analysis of the deposited data

How the results depend on the processing

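The count of 187 genes that passed between the gates was 799 with array weights, 122 without the intensity trend and 8 (7 rose, 1 fell) from the 6 KO LMPP libraries alone. Leaving out 1 library gave 54 (without GFP-positive replicate 3) to 370 (without GFP-positive replicate 2), with 66 and 71 without GFP-negative replicates 2 and 1 and 299 without GFP-positive replicate 1. In these 6 fits 38 genes passed every time (25 rises, 13 falls). The 2 libraries of low detection, KO LMPP GFP-positive replicate 3 and Ctrl HSC GFP-positive replicate 2, left 143 when both were left out. The all-gene median of -0.22 was 0.17 with median centring, where 97 rose and 43 fell, and -0.02 with quantile normalisation, where 100 rose and 97 fell. With a pseudocount of 0.1 ppm 73 rose and 52 fell, and with a mean filter of 5 ppm 96 rose and 50 fell. Between genotypes 0 genes passed, 6 with array weights and 0 to 1 with 1 library left out. Between LMPP and HSC of the KO 0 passed, 44 with array weights, 7 without the 2 libraries of low detection, 3 without the trend and 0 to 4 with 1 library left out. Rag2, Dntt and Il7r passed and Rag1 and Flt3 did not under all 18 alternatives. Tal1 did not pass with a pseudocount of 0.1 ppm (-3.75), from the 6 libraries alone (-3.13) or without the trend (-3.13). With 1 library left out the change of Tal1 ranged from -4.13 to -1.67 and did not pass without GFP-negative replicate 1, GFP-negative replicate 2 or GFP-positive replicate 3. No named gene that passed changed sign under these alternatives, whereas some that did not pass and some list medians did. Groups that do not overlap cannot change sign when 1 library is left out. With the replicate block 268 genes passed (143 rose, 125 fell) and no named gene lost its call. Libraries of both gates with the same replicate number also share a description number in their labels. Their deviations from the group means correlated at 0.0459, 0.073 and 0.0735, and every library correlated best with its own number. The labels do not say whether such a number is an animal or a pool, so samples are not treated as pairs in the main fit. Depth limits genes near the level of no read, and causes of these shifts were not tested.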
